A study of Mus musculus with 60 samples.

Results

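The 8 genes described here encode the pore-forming alpha-1 subunits of the neuronal voltage-gated calcium channels: Cacna1a, Cacna1b, Cacna1c, Cacna1d, Cacna1e, Cacna1g, Cacna1h and Cacna1i. They were taken by symbol from the deposited table of 18088 genes, after each Ensembl gene identifier had been matched to GENCODE release M21, and all 8 were found and passed the filter on low values. RNA was measured by sequencing in the prefrontal cortex of C57BL/6J mice on postnatal day 25. Heterozygous mice (Het) carried 1 copy of Grin2b, the gene of an NMDA receptor subunit, with the C456Y change beside a wild-type copy, and wild-type mice (WT) carried none. Both genotypes, in both sexes, had been given fluoxetine, lithium or vehicle through the mother's milk from postnatal day 3 to 24, so the 6 genotype-by-drug groups were Het fluoxetine, Het lithium, Het vehicle, WT fluoxetine, WT lithium and WT vehicle, with 10 libraries each (5 female and 5 male) and 60 in all. Fluoxetine blocks serotonin reuptake, and lithium is a mood stabiliser. No source used here gives the doses. The labels number the replicates without saying whether each came from its own animal or litter, so the p-values measure only the spread between these samples, which may be technical.

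A voltage-gated calcium channel opens when the membrane depolarises and lets calcium into the cell, and the alpha-1 subunit forms the pore, the voltage sensor and the binding sites of most channel drugs. The family falls into classes that open at different voltages and sit in different parts of a neuron. L-type channels (Cacna1c and Cacna1d) lie mostly on cell bodies and dendrites and couple activity to gene expression; P/Q-type (Cacna1a), N-type (Cacna1b) and R-type (Cacna1e) channels supply calcium for transmitter release and dendritic signals; T-type channels (Cacna1g, Cacna1h and Cacna1i) open near the resting potential and shape bursts of firing. The accessory beta and alpha-2-delta subunits help bring the high-voltage channels to the surface.

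The part of the family that all members share is the pore. The stretches below are 45 coding bases (15 codons) around the glutamate of the ion-selectivity filter in the first repeat. They were taken from the longest protein-coding GENCODE M21 transcript of each gene (build GRCm38). They are shown because they place the classes beside each other at a conserved site. Capitals mark codon bases in the last position that are G or C, and the glutamate codon is codon 8.
Cacna1c (chr6:118751372-118751416, minus strand): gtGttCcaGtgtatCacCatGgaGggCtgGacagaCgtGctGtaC
Cacna1d (chr14:30178548-30178592, minus strand): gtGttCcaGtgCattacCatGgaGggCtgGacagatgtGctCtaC
Cacna1a (chr8:84523162-84523206, plus strand): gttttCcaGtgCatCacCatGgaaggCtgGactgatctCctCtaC
Cacna1b (chr2:24730674-24730718, minus strand): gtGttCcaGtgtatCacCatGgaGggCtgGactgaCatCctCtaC
Cacna1e (chr1:154633557-154633601, minus strand): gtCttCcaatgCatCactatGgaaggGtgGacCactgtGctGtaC
Cacna1g (chr11:94461950-94462159, minus strand): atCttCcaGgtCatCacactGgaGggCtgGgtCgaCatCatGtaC
Cacna1h (chr17:25393568-25393737, minus strand): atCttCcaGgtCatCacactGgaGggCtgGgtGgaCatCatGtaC
Cacna1i (chr15:80355793-80356164, plus strand): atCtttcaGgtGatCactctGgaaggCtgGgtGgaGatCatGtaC
The coordinates of the 3 T-type stretches span an intron, and the others lie in 1 exon. Cacna1g and Cacna1h were identical at 44 of the 45 bases, and both L-type genes encoded the same residue at all 15 codons, with 41 identical bases. Cacna1e and Cacna1h, the members with the lowest and the highest transcript GC content, shared 28 of the bases and 8 of the encoded residues. In these stretches G or C stood at 14 of the 15 last codon positions in Cacna1g and Cacna1h and at 13 in Cacna1b and Cacna1c. The number was 12 in Cacna1d and Cacna1i and 11 in Cacna1a and Cacna1e, so the stretches do not follow the GC content of the whole transcripts. Over the whole coding sequence, G or C stood at 75.4% of the last codon positions of Cacna1i, 74.7% in Cacna1a, 73.3% in Cacna1h and 72.4% in Cacna1g, against 68.7% in Cacna1c, 66.5% in Cacna1b, 64.5% in Cacna1e and 58.9% in Cacna1d. Over the longest transcript, GC content was 58.4% in Cacna1a, 58.1% in Cacna1g and 59.3% in Cacna1i, and highest of all in Cacna1h, against 52.9% in Cacna1b, 50.3% in Cacna1c, 49.6% in Cacna1d and 48.3% in Cacna1e. The T-type genes and Cacna1a thus stood together on this measure, which the later comparisons return to.

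The genes themselves are long and lie on 8 different chromosomes. Cacna1c, at chr6:118587240-119196418 on the minus strand, shares chromosome 6 with Grin2b. Cacna1a covers chr8:84388440-84640246 (plus strand), Cacna1b chr2:24603887-24763152 (minus) and Cacna1d chr14:30039939-30491455 (minus). Cacna1e covers chr1:154390731-154884501 (minus), Cacna1g chr11:94408391-94474198 (minus), Cacna1h chr17:25374285-25433783 (minus) and Cacna1i chr15:80287238-80398279 (plus). Cacna1d shares 589 exonic bases with Chdh on the opposite strand, which is in the table, Cacna1a shares 435 bases with the antisense gene Gm16183 and Cacna1h 158 bases with Tpsg1, and neither of those is in the table. The library kit marks strand, per the labels' protocols, but no source used here says whether counting used it, so reads from these overlaps may count for either gene.

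All 8 genes were well covered in this tissue. The lowest read number for a member in a library was 1489, for Cacna1h, and the highest was 12450, for Cacna1e, so counting error was at most 2.59% of a value. Cacna1a had the highest level per length in WT vehicle cortex, at 871 ± 86.5 normalised counts per kb of its longest transcript (SD, n = 10). Cacna1e followed at 538 ± 42.9, Cacna1g at 532 ± 41.7, Cacna1b at 491 ± 54.8 and Cacna1i at 489 ± 48.3, and these 4 neighbours did not differ beyond their spread. Cacna1h (296 ± 41.7), Cacna1c (243 ± 36.7) and Cacna1d (239 ± 40.2) formed a lower group, and Cacna1c and Cacna1d also lay within each other's spread. Per length of all annotated exons Cacna1a stayed first, at 604 (range 515 to 734) per kb, and the order below it changed, with Cacna1i at 485, Cacna1b at 481, Cacna1g at 440, Cacna1e at 318, Cacna1h at 250, Cacna1d at 183 and Cacna1c at 151. The annotated exons of Cacna1e cover 25228 bases, against 14921 in its longest transcript. The same gene, Cacna1a, was first and Cacna1e second in Het fluoxetine cortex, at 878 ± 56.6 and 669 ± 34.2 normalised counts per kb of longest transcript, and Cacna1h was last there, at 232 ± 29.6.

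**Figure D1:**
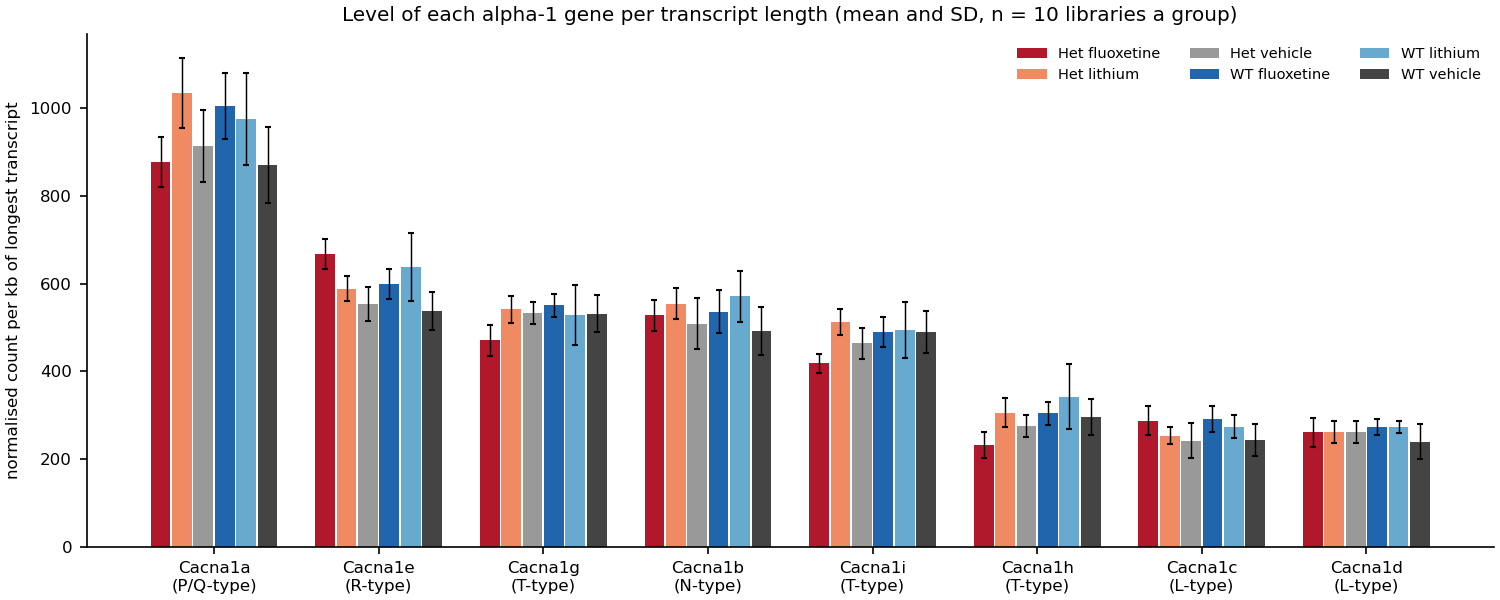
Normalised count per kb of the longest transcript (vertical axis) for each alpha-1 gene in the 6 genotype-by-drug groups; bars are means and error bars SD over 10 libraries. Cacna1a is the highest in every group, and Cacna1h, Cacna1c and Cacna1d are the 3 lowest.

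Depth was 23901635 to 37769417 recovered reads per library. On 16 pseudogenes, 10 libraries stood apart, those below the widest gap in mean level. The pseudogenes were taken as those called and over 4-fold apart between Het fluoxetine and WT fluoxetine cortex. That choice favoured a split along this comparison, so the split is not a separate check on it. In 9 of the 10 Het fluoxetine libraries the mean level of these pseudogenes was 1.78 to 2.60 on the log2 scale. In 1 of the 10 WT vehicle libraries (female replicate 2) it was 3.15. Het fluoxetine male replicate 1 was at 5.65 and the other libraries were at 4.60 or above. The same libraries carried a trend with GC content. The Pearson correlation, across the tested genes of 1 library, between transcript GC and each gene's deviation from its mean over libraries was -0.31 to -0.10 in Het fluoxetine libraries, against -0.14 to 0.21 in Het vehicle, -0.04 to 0.24 in WT fluoxetine, -0.22 to 0.34 in Het lithium, -0.49 to 0.23 in WT lithium and -0.36 to 0.21 in WT vehicle libraries. A kind of library that takes in 9 of 10 samples of a group cannot be told apart from that group. Member calls in Het fluoxetine comparisons are therefore set beside values after a GC correction and with a term for these 10 libraries (the library term). The size of that term is set by Het fluoxetine male replicate 1 and WT vehicle female replicate 2, each against the rest of its sex group. It takes up most of the information on Het fluoxetine cortex, so a call lost with it does not show that a difference is absent. Grin2b RNA had a median of 22547 normalised counts in Het fluoxetine, 19020 in Het lithium, 18398 in Het vehicle, 19840 in WT fluoxetine, 20739 in WT lithium and 17201 in WT vehicle cortex, and as the allele changes 1 residue, its level does not check the genotype. All values are read counts that the authors divided by 1 factor per library (normalised read counts), and the test throughout was limma on log2(value + 1), with Benjamini-Hochberg adjustment over 17810 genes and a call at an adjusted p below 0.05. Fold changes are on that log2 scale, Het over WT or drug over vehicle, averaged over both sexes. Libraries of a group that lay beyond every library of another were counted for the members only, not for all tested genes.

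**Figure D2:**
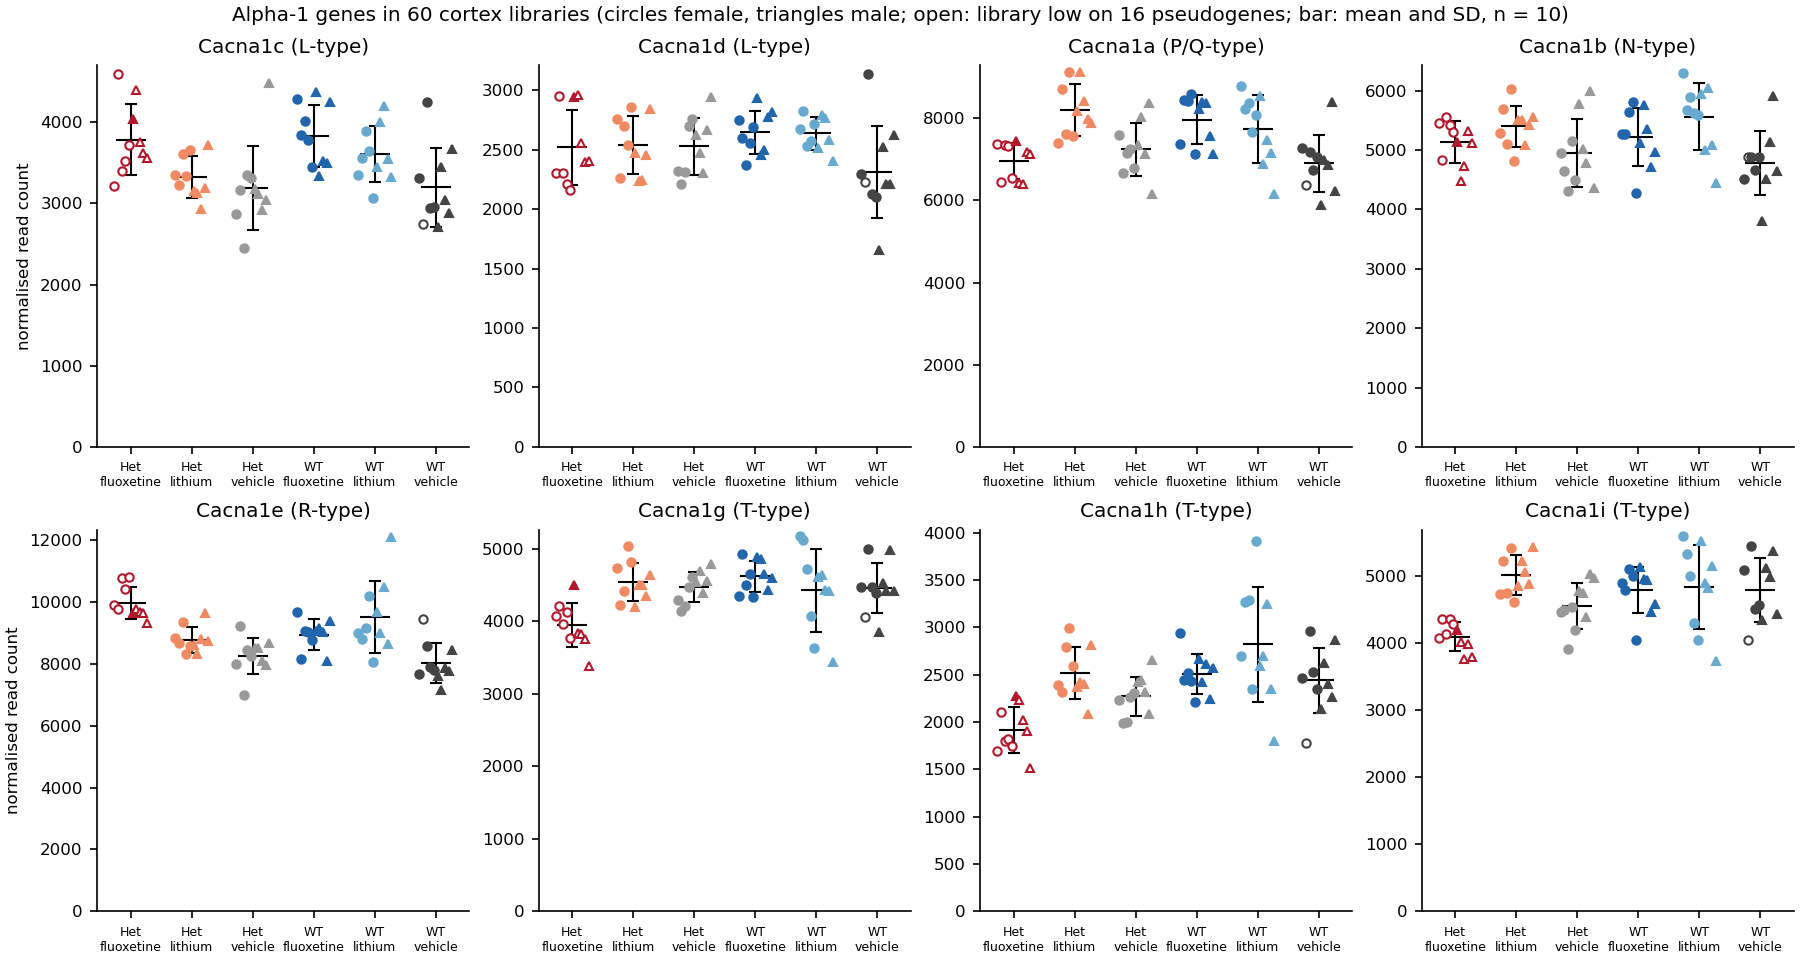
Normalised read count (vertical axis, from 0) of each alpha-1 gene in every library of the 6 groups; circles are female and triangles male libraries, open symbols the 10 libraries low on 16 pseudogenes, and black marks the mean with its SD (n = 10). The Het fluoxetine libraries lie low in the 3 T-type panels and high for Cacna1e, and most of them are open symbols.

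Without drug, no alpha-1 gene was called between Het vehicle and WT vehicle cortex by limma, where 0.59% of all tested genes were called. The log2 fold changes of the 8 genes ran from -0.09 for Cacna1h to 0.14 for Cacna1d. Cacna1d, the L-type gene that opens at the lower voltages, was the closest: it had 2214, 2546 and 2939 normalised counts (lowest, median and highest) in Het vehicle, against 1657, 2222 and 3136 in WT vehicle libraries. The log2 fold change of Cacna1d was 0.14 (SE 0.067, 95% interval 0.0077 to 0.28, adjusted p = 0.466), and the Het vehicle range lay inside the WT vehicle range. Cacna1d was the only member with an unadjusted p below 0.05 here, and the quasi-likelihood test of edgeR on the recovered reads also called 0 of the 8. For Cacna1c the interval was -0.15 to 0.14, and for Cacna1a it was -0.04 to 0.18.

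With fluoxetine, 4 of the 8 genes rose in WT cortex: Cacna1a, Cacna1c, Cacna1d and Cacna1e, by 1.12-fold to 1.21-fold. In that contrast 8.43% of all tested genes were called and 4.35% were called higher. The 3 T-type genes were not called, nor was Cacna1b. The median log2 fold change was 0.14 over the 8 genes and 0.00014 over all tested genes. Cacna1c, the main L-type gene of forebrain neurons, had 3338, 3813 and 4374 normalised counts (lowest, median and highest) in WT fluoxetine, against 2704, 3000 and 4253 in WT vehicle libraries. All 10 WT fluoxetine libraries were above the WT vehicle mean of their sex for Cacna1c, although the ranges overlapped, and the log2 fold change was 0.27 (SE 0.074, adjusted p = 0.0133). Cacna1a, whose channels trigger fast transmitter release, had 7127, 8301 and 8598 normalised counts in WT fluoxetine, against 5885, 6932 and 8385 in WT vehicle libraries. All 10 WT fluoxetine libraries were again above the WT vehicle mean of their sex, 4 were above every WT vehicle library, and the log2 fold change of Cacna1a was 0.21 (SE 0.055, adjusted p = 0.00882). Cacna1e had 8084, 9056 and 9693 normalised counts in WT fluoxetine, against 7159, 7834 and 9439 in WT vehicle libraries, and its log2 fold change was 0.16 (SE 0.047, adjusted p = 0.022). For Cacna1e 9 of 10 libraries had that direction, and it lost its call without WT vehicle male replicate 2 (adjusted p = 0.0505).

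Cacna1d was the least stable of the 4. It had 2374, 2645 and 2937 normalised counts in WT fluoxetine, against 1657, 2222 and 3136 in WT vehicle libraries, so the WT vehicle range enclosed the other, and 9 of 10 WT fluoxetine libraries were above the WT vehicle mean of their sex. The log2 fold change of Cacna1d was 0.21 (SE 0.067, adjusted p = 0.038) in limma, and adjusted p = 0.0614 in edgeR, 0.0601 with the library term and 0.0542 without the 3 libraries that had the largest residuals (WT vehicle female replicate 2, with replicate 5 of each sex in WT lithium). It kept its call in 7 of the 20 fits that left out 1 library each, with adjusted p between 0.00447 and 0.129. It lost it without WT fluoxetine female replicate 1, 2, 4 or 5, WT fluoxetine male replicate 1, 4 or 5, WT vehicle female replicate 1, 2, 4 or 5, or WT vehicle male replicate 1 or 3. Cacna1b, the N-type gene, had 4272, 5271 and 5810 normalised counts in WT fluoxetine, against 3811, 4771 and 5918 in WT vehicle libraries, with a log2 fold change of 0.13 (adjusted p = 0.189). The T-type genes were closest to 0: the log2 fold change was 0.053 for Cacna1g, 0.048 for Cacna1h and 0.0029 for Cacna1i, with 95% intervals of -0.050 to 0.16, -0.12 to 0.22 and -0.11 to 0.11.

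RefSeq lists promoters for some of the members, both those called higher with fluoxetine and those not. Of the 8 members, 5 have an entry in the RefSeq promoter table (build GRCm38.p6, 250 bases before to 50 after a start), with 8 starts between them. Shown are 1 start of Cacna1c and the start of Cacna1e, the members called higher with fluoxetine in both genotypes, with the letters TGACG (or CGTCA on the other strand), the core of the cyclic-AMP response element, in capitals.
Cacna1c (chr6:119196360-119196659, minus strand): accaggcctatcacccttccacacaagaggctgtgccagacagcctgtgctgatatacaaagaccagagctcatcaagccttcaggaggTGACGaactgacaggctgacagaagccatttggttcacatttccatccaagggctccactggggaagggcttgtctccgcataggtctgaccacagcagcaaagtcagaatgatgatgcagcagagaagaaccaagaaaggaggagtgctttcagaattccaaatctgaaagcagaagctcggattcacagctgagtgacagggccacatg
Cacna1e (chr1:154725871-154726170, minus strand): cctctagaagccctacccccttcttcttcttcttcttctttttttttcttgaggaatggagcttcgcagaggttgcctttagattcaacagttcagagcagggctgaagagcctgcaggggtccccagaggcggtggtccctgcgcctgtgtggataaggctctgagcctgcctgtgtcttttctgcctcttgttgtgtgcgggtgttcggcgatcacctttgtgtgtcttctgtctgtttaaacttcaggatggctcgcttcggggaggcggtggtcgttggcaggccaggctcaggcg
The Cacna1c start shown is the only 1 of its 3 listed starts with the TGACG letters. They stood in 3 of the 8 member entries (1 each of Cacna1b, Cacna1c and Cacna1i) and not in the Cacna1e stretch, and 20.8% of all 32851 listed promoters hold them on 1 strand or the other. Cacna1b and Cacna1i were not called higher with fluoxetine in either genotype. Cacna1d, called higher in WT cortex, had the letters in none of its starts, and Cacna1a has no entry. The full element TGACGTCA, which 1.79% of the promoters hold, was in none of the 8 member entries. The Cacna1c stretch held 3 CG pairs, the other 2 Cacna1c starts 7 and 57, and the Cacna1e stretch 11, beside a median of 7 over all listed promoters. A match of letters is a description of the sequence and not a binding site.

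With lithium, 4 of the 8 genes rose in WT cortex, Cacna1a, Cacna1b, Cacna1d and Cacna1e, by 1.12-fold to 1.18-fold, where 19.2% of all tested genes were called and 9.34% were called higher. The comparison shares its WT vehicle libraries with the fluoxetine comparison, so both are given side by side and neither supports the other. Cacna1e had 8062, 9086 and 12093 normalised counts (lowest, median and highest) in WT lithium, against 7159, 7834 and 9439 in WT vehicle libraries, and 9 of 10 libraries were above the WT vehicle mean of their sex. Its log2 fold change was 0.24 (SE 0.047, adjusted p = 0.00024), and the highest value came from WT lithium male replicate 5, the library with the strongest GC trend. Without the 3 libraries of largest residual, of which it is 1, the log2 fold change of Cacna1e was 0.25 (adjusted p = 7.47e-05). Cacna1b had 4445, 5650 and 6305 normalised counts in WT lithium, against 3811, 4771 and 5918 in WT vehicle libraries, with 3 of the 10 above every WT vehicle library, and its log2 fold change was 0.22 (SE 0.059, adjusted p = 0.00729). Both genes kept their call in each of the 20 fits that left out 1 library.

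Cacna1a had 6154, 7876 and 8790 normalised counts in WT lithium, against 5885, 6932 and 8385 in WT vehicle libraries, and its log2 fold change was 0.16 (SE 0.055, adjusted p = 0.0292). Cacna1a lost its call without WT lithium male replicate 1, WT vehicle female replicate 4, WT vehicle male replicate 1 or WT vehicle male replicate 5, with adjusted p up to 0.0796. Cacna1d had 2404, 2629 and 2824 normalised counts in WT lithium, against 1657, 2222 and 3136 in WT vehicle libraries. All 10 WT lithium libraries were above the WT vehicle mean of their sex for Cacna1d, its log2 fold change was 0.21 (SE 0.067, adjusted p = 0.0238), and it lost its call without WT vehicle female replicate 4, WT vehicle female replicate 5 or WT vehicle male replicate 1. Cacna1c stood at a log2 fold change of 0.18 (adjusted p = 0.074), and it was called without WT lithium female replicate 5, WT vehicle female replicate 3 or WT vehicle male replicate 5. Of the T-type genes, Cacna1h had the widest range in WT lithium libraries, with 1797, 2700 and 3913 normalised counts in WT lithium, against 1779, 2434 and 2959 in WT vehicle libraries, and a log2 fold change of 0.19 (SE 0.084, adjusted p = 0.101). It was called without WT lithium female replicate 4, WT lithium male replicate 5 or WT vehicle female replicate 3, and after the GC correction (0.29, adjusted p = 0.000754). Cacna1g (-0.02) and Cacna1i (0.0099) were near 0. After the GC correction 6 of the 8 were called higher, Cacna1c (0.18, adjusted p = 0.0466) and Cacna1h joining the 4. Cacna1c missed the threshold, leaving 5, when the replicate block (adjusted p = 0.0515) or the library term (adjusted p = 0.0675) was added to that correction. With the 4 WT lithium and WT vehicle sex groups fitted alone 2 were called, Cacna1b (adjusted p = 0.0495) and Cacna1e (adjusted p = 0.0207), and 2 were called without WT vehicle female replicate 4 or without WT vehicle male replicate 1.

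Markers of several non-neuronal cell types fell with lithium in the WT cortex, where 9.87% of all tested genes were called lower. All 5 of 5 microglia markers were called lower, as were 4 of 5 astrocyte, 4 of 5 endothelial, 4 of 4 pericyte and smooth muscle and 4 of 5 meningeal fibroblast markers, and no marker of these lists was called higher. Of 5 oligodendrocyte and 3 oligodendrocyte precursor markers 0 were called, with median log2 fold changes of -0.30 and -0.09. The summed level of the microglia markers was 4285 to 6513 normalised counts in WT lithium, against 6391 to 7813 in WT vehicle libraries, and that of the endothelial markers was 3956 to 5439 in WT lithium, against 5158 to 6752. For astrocyte markers the range was 26760 to 36762 in WT lithium, against 32291 to 39290 in WT vehicle libraries, for pericyte and smooth muscle markers 2956 to 5671, against 5365 to 6321, and for meningeal markers 1201 to 2924, against 1638 to 3332. None of these markers was at 0 in any library. Of 6 excitatory neuron markers 0 were called, and their summed level was 77783 to 115460 in WT lithium, against 81641 to 120429 in WT vehicle libraries. Of 6 striatal and 6 olfactory bulb and immature neuron markers 0 were called, but their summed levels varied widely between libraries. The striatal sum was 2830 to 22956 in WT lithium, 2874 to 14034 in WT fluoxetine and 2696 to 6633 in WT vehicle libraries. The olfactory bulb sum was 3477 to 13444 in WT lithium, against 2686 to 20732 in WT vehicle libraries. Of 7 interneuron markers Pvalb was called higher (0.34), and 0 were called after the GC correction. Of 3 thalamic markers 1 was called lower, 1 after that correction and 0 with the library term. In the WT fluoxetine comparison 3 of 5 endothelial markers were called lower (Tek, Cldn5 and Flt1), with Acta2 of the pericyte list and Tcf7l2 of the thalamic list, and no marker of excitatory neurons or interneurons was called. After the GC correction the lower calls there were 4 endothelial, 3 pericyte, 3 astrocyte and 2 thalamic markers. The part of these shifts in the alpha-1 results was not tested. In bulk tissue, fewer cells of a type and less RNA per cell cannot be told apart.

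**Figure D3:**
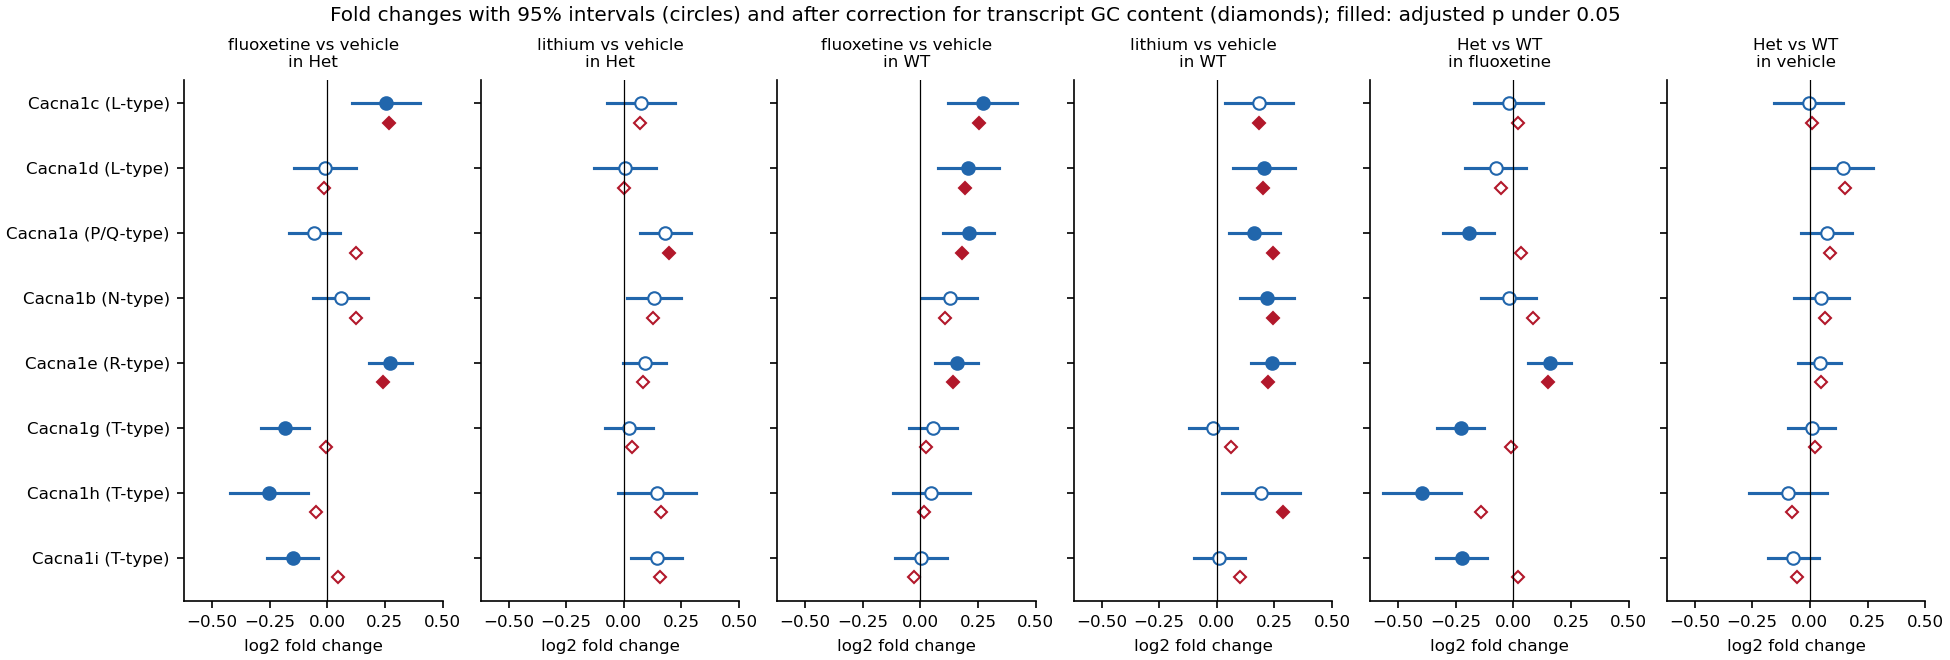
Log2 fold change (horizontal axis) of the alpha-1 genes (rows) in 6 comparisons; circles are the model's values with 95% intervals, diamonds the values after the GC correction, and filled symbols mark an adjusted p below 0.05. In WT cortex the diamonds stay near the circles with fluoxetine, and in both Het fluoxetine comparisons the T-type diamonds move toward 0, leaving Cacna1h at -0.14 between Het and WT fluoxetine cortex.

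Lithium in Het cortex called none of the 8 genes by limma, where 0.983% of all tested genes were called. The nearest was Cacna1a, with 7409, 8084 and 9129 normalised counts (lowest, median and highest) in Het lithium, against 6156, 7199 and 8368 in Het vehicle libraries. All 10 Het lithium libraries were above the Het vehicle mean of their sex and 4 were above every Het vehicle library. Its log2 fold change was 0.18 (SE 0.055, adjusted p = 0.0855), and it was 0.20 (adjusted p = 0.0267) after the GC correction. Cacna1i, with 4602, 4964 and 5420 normalised counts in Het lithium, against 3907, 4509 and 5023 in Het vehicle libraries, had a log2 fold change of 0.14 (adjusted p = 0.214). Cacna1b (0.13), Cacna1a and Cacna1i were the 3 members with an interval above 0, and edgeR called 0 of the 8. Between Het lithium and WT lithium cortex no member was called either, where 0.0281% of all tested genes were; Cacna1e had the smallest p, with a log2 fold change of -0.11 (95% interval -0.20 to -0.01, adjusted p = 0.367), and edgeR called 0. The difference between the lithium effects in Het and WT cortex, the interaction, was called for none of the 8 genes and for 0.0674% of all tested genes. Cacna1e (-0.15, adjusted p = 0.379) and Cacna1d (-0.20, SE 0.095, adjusted p = 0.414) had the smallest p-values, and edgeR again called 0.

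In Het cortex, fluoxetine gave a split pattern, with 2 genes higher and all 3 T-type genes lower. In this contrast 39% of all tested genes were called, 19.1% higher and 19.9% lower, so calls were common over all genes. Among the members, Cacna1e had the clearest separation. It had 9322, 9777 and 10806 normalised counts (lowest, median and highest) in Het fluoxetine, against 6985, 8352 and 9211 in Het vehicle libraries. The ranges did not overlap, but the share of all tested genes whose ranges lay apart was not counted. The log2 fold change of Cacna1e was 0.27 (SE 0.047, adjusted p = 9.22e-06), or 1.21-fold. Cacna1c had 3220, 3675 and 4595 normalised counts in Het fluoxetine, against 2454, 3140 and 4481 in Het vehicle libraries, all 10 above the Het vehicle mean of their sex, and its log2 fold change was 0.25 (SE 0.074, adjusted p = 0.00504). With the GC correction Cacna1e stood at 0.24 (adjusted p = 3.18e-05) and Cacna1c at 0.27 (adjusted p = 0.00307). With the library term Cacna1e stood at 0.17 (SE 0.086, adjusted p = 0.57) and Cacna1c at 0.41 (SE 0.14, adjusted p = 0.253), and neither was called. Both SEs were larger than without the term, and the Cacna1c value was larger as well, so the lost calls do not show that these differences are absent. In Het fluoxetine male replicate 1, the library of the group outside the pseudogene set, Cacna1e had 9650 and Cacna1c 4046 normalised counts, above and within the Het vehicle range.

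The T-type genes fell with fluoxetine in Het cortex before correction and not after it. Cacna1g, the main T-type gene of thalamic relay neurons, had 3382, 3903 and 4499 normalised counts in Het fluoxetine, against 4138, 4513 and 4788 in Het vehicle libraries, and 8 of the 10 lay below every Het vehicle library. Its log2 fold change was -0.18 (SE 0.052, adjusted p = 0.00398). Cacna1h had 1517, 1866 and 2277 normalised counts in Het fluoxetine, against 1991, 2286 and 2656 in Het vehicle libraries, and its log2 fold change was -0.25 (SE 0.084, adjusted p = 0.0139). Cacna1i had 3762, 4101 and 4350 normalised counts in Het fluoxetine, against 3907, 4509 and 5023 in Het vehicle libraries, and its log2 fold change was -0.15 (SE 0.055, adjusted p = 0.0269). Each of the 5 calls held in all 20 fits that left out 1 library. The median log2 fold change of all tested genes within 1 percentage point of a member's GC content was -0.19 for Cacna1g, -0.22 for Cacna1h and -0.20 for Cacna1i, close to the values of the 3 genes. After the GC correction the log2 fold change was -0.0051 for Cacna1g, -0.05 for Cacna1h and 0.05 for Cacna1i, none called, and with the library term it was 0.022 for Cacna1g, 0.10 for Cacna1h and 0.021 for Cacna1i, again none called. Het fluoxetine male replicate 1 was the highest of its group for Cacna1g, at 4499, and for Cacna1h, at 2277 normalised counts, and both lay within the Het vehicle range.

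Of the members that were not called, Cacna1a had 6398, 7150 and 7449 normalised counts in Het fluoxetine, against 6156, 7199 and 8368 in Het vehicle libraries, and its log2 fold change was -0.06 (adjusted p = 0.442). The median of the genes of like GC content was -0.19, and Cacna1a stood at 0.13 after the GC correction (adjusted p = 0.0691) and at 0.07 with the library term (adjusted p = 0.915). Cacna1b (0.06, adjusted p = 0.46) and Cacna1d (-0.01, adjusted p = 0.925) were not called. In the same comparison 3 of 6 excitatory neuron markers and 4 of 5 endothelial markers were called lower, and after the GC correction 0 and 3 were. Of 7 interneuron markers 1 was called higher (Gad2) and 2 lower (Slc32a1 and Sst), with a summed level of 19090 to 28174 in Het fluoxetine, against 19140 to 29168 in Het vehicle libraries, and 1 of 3 oligodendrocyte precursor and 1 of 5 meningeal fibroblast markers were called higher. The summed excitatory markers were 74719 to 104537 normalised counts in Het fluoxetine, against 85582 to 129711 in Het vehicle libraries, and the summed endothelial markers 4463 to 5770 in Het fluoxetine, against 5158 to 8191. Of 3 thalamic markers 1 was called higher and Tcf7l2 lower (-0.54), with a summed level of 839 to 1269 in Het fluoxetine, against 814 to 1157 in Het vehicle libraries. With the library term no marker of these lists was called. None of these markers was at 0 in any library, and their part in the member values was not tested.

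**Figure D4:**
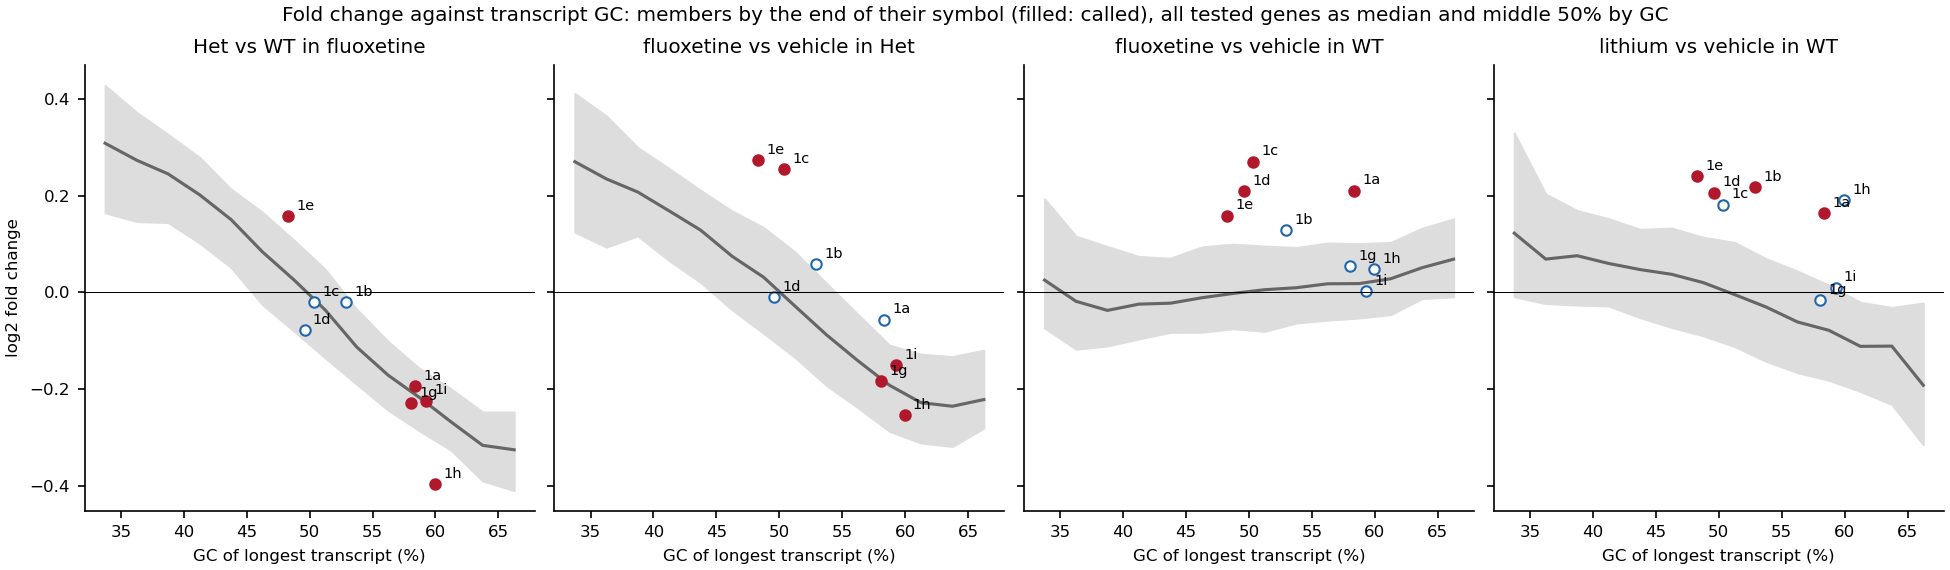
Log2 fold change (vertical axis) against GC content of the longest transcript in percent (horizontal axis) for the alpha-1 genes, labelled by the end of the symbol and filled where called; the line is the median of all tested genes by GC and the band their middle 50%. With fluoxetine in Het cortex the T-type genes lie inside the band and Cacna1e, Cacna1c, Cacna1a and Cacna1b above it; between Het and WT fluoxetine cortex Cacna1e lies above and Cacna1h below it, and with fluoxetine in WT cortex the line is nearly flat.

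Between Het fluoxetine and WT fluoxetine cortex, 5 of the 8 genes were called, 1 higher and 4 lower, where 39.5% of all tested genes were called, 19.6% higher and 19.9% lower. The Het fluoxetine libraries are those of the comparison above, so these are not separate findings. Cacna1h had 1517, 1866 and 2277 normalised counts (lowest, median and highest) in Het fluoxetine, against 2212, 2477 and 2943 in WT fluoxetine libraries, and 8 of 10 lay below every WT fluoxetine library. Its log2 fold change was -0.40 (SE 0.084, adjusted p = 0.000221), the largest of any member, beside a median of -0.25 for genes of like GC content. Cacna1g stood at -0.23 (SE 0.052, adjusted p = 0.000413), with 3382, 3903 and 4499 normalised counts in Het fluoxetine, against 4328, 4623 and 4933 in WT fluoxetine libraries, and 9 of 10 below every WT fluoxetine library. Cacna1i had a log2 fold change of -0.22 (SE 0.055, adjusted p = 0.00106) and Cacna1a of -0.19 (SE 0.055, adjusted p = 0.00372), beside medians of -0.23 and -0.21 for genes of like GC content. Cacna1e was higher, with a log2 fold change of 0.16 (SE 0.047, adjusted p = 0.00546), and 6 of 10 Het fluoxetine libraries lay above every WT fluoxetine library. After the GC correction Cacna1e alone was called (0.15, adjusted p = 0.0149), Cacna1h stood at -0.14 (adjusted p = 0.133), and Cacna1a (0.031), Cacna1g (-0.0093) and Cacna1i (0.018) were near 0. With the library term no member was called, Cacna1e stood at 0.05 (adjusted p = 0.976), Cacna1h at -0.04, Cacna1g at -0.02, Cacna1i at -0.05 and Cacna1a at -0.07. Among the marker lists of this comparison, 1 of 7 interneuron markers was called higher and 3 lower, 2 of 6 excitatory markers higher and 2 lower, and 2 of 3 oligodendrocyte precursor markers lower. In the same comparison 1 marker each of the astrocyte, endothelial and meningeal lists was called lower, 1 pericyte marker was called higher and 1 lower, and 1 thalamic marker was called higher. None of these marker calls remained after the GC correction or with the library term, and the part of the markers in the member values was not tested.

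Before correction, the fluoxetine effect was called different between the genotypes for Cacna1a and Cacna1g, where calls were common over all tested genes. The interaction was -0.27 (SE 0.077, adjusted p = 0.0101) for Cacna1a, which was -0.06 in Het and 0.21 in WT cortex, and -0.24 (SE 0.073, adjusted p = 0.0151) for Cacna1g, which was -0.18 in Het and 0.05 in WT cortex. In the interaction 24% of all tested genes were called, 12% in the lower direction of these 2. Cacna1h (-0.30, SE 0.12, adjusted p = 0.056) and Cacna1d (-0.22, SE 0.095, adjusted p = 0.0815) missed the threshold. Cacna1h was called in 9 of the 40 fits that left out 1 library, namely Het fluoxetine female replicate 2 or male replicate 1 or 2, Het vehicle female replicate 2 or male replicate 4, WT fluoxetine female replicate 5 or male replicate 4, and WT vehicle female replicate 3 or male replicate 5. Cacna1d was called in 3 of them, without Het fluoxetine female replicate 2, WT vehicle female replicate 3 or WT vehicle male replicate 5. For Cacna1c, the gene with similar values in both genotypes (0.25 in Het and 0.27 in WT cortex), the interaction was -0.02 with a 95% interval of -0.22 to 0.19, and for Cacna1e (0.27 in Het and 0.16 in WT cortex) it was 0.11 with an interval of -0.02 to 0.25. After the GC correction no member was called, with -0.05 (adjusted p = 0.7) for Cacna1a and -0.03 (adjusted p = 0.835) for Cacna1g, and none was called with the library term.

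No sex difference was called in the family. Over all groups, female against male libraries gave log2 fold changes between -0.02 and 0.02 for the 8 genes and called none by limma or edgeR, where 0.107% of all tested genes were called, and 0 members had an unadjusted p below 0.05. The 7 sex interactions, which ask whether a genotype or drug effect differs between females and males, called no member; 6 of them called 0% of all tested genes, and lithium in WT cortex called 9.64%. In that interaction the nearest member was Cacna1e (-0.22 female minus male, SE 0.093, adjusted p = 0.0996).

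Across the 60 libraries the levels of the members were linked to the GC trend of the library to different degrees, given here as a description of libraries that share groups and preparation. The Pearson correlation of log2 level with the trend was 0.66 for Cacna1h, 0.63 for Cacna1g, 0.62 for Cacna1i and 0.52 for Cacna1a, the 4 GC-rich members, and -0.73 for Cacna1e. It was 0.20 for Cacna1b, -0.01 for Cacna1d and -0.17 for Cacna1c. Some members also followed each other. Cacna1a and Cacna1b had r = 0.77 (0.82 after the GC correction), Cacna1g and Cacna1i r = 0.79 (0.69 after it), and the 2 L-type genes r = 0.70 (0.65 after it), each over 60 libraries. Other pairs changed more with the correction. Cacna1g and Cacna1h had r = 0.58 (0.14 after it), Cacna1h and Cacna1i r = 0.58 (0.23 after it) and Cacna1a and Cacna1e r = -0.13 (0.53 after it). Cacna1c and Cacna1a had r = -0.07.

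**Figure D5:**
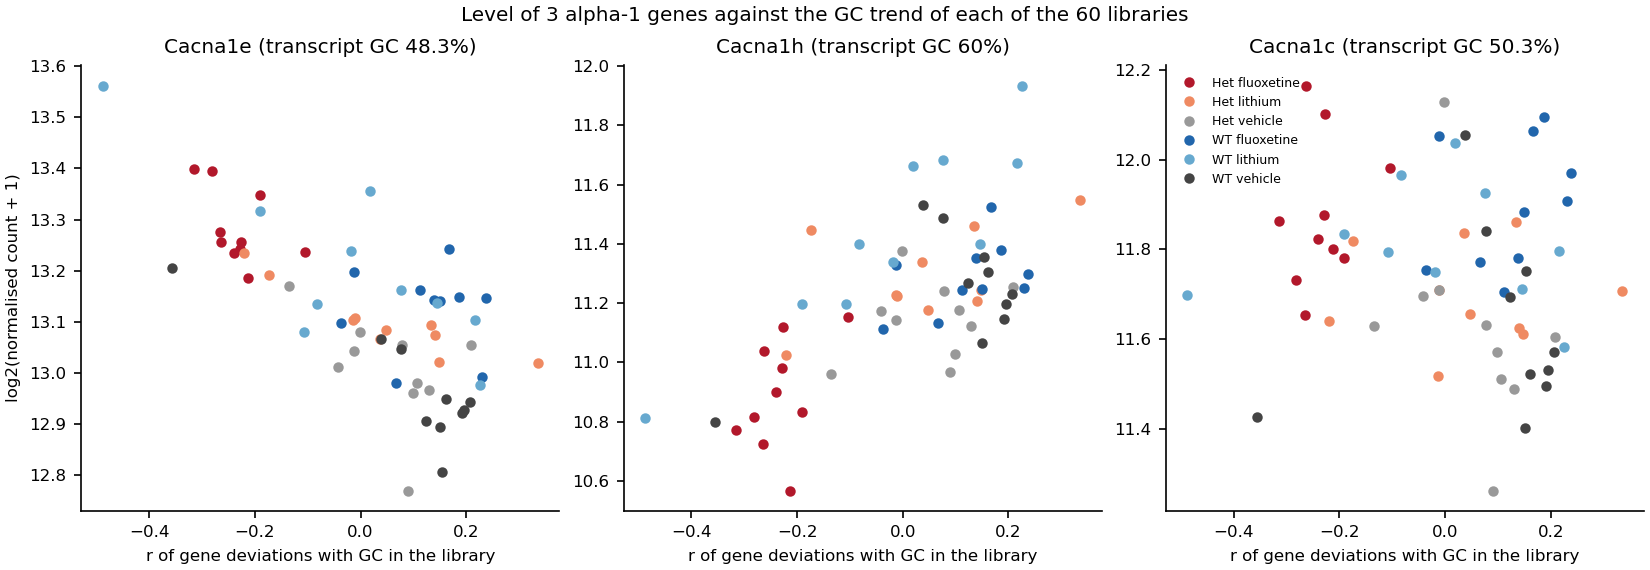
Log2(normalised count + 1) (vertical axis) of Cacna1e, Cacna1h and Cacna1c against the correlation of gene deviations with GC content in the same library (horizontal axis), with 1 point for each of the 60 libraries coloured by group. Cacna1e runs down (r = -0.73) and Cacna1h up (r = 0.66) along the trend, and Cacna1c shows little slope (r = -0.17).

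The tested genes whose level followed each member most closely over the 60 libraries were taken from the 3 with the highest Pearson r. For Cacna1c they were Kat6b (0.85), Cdh4 (0.79) and Gria1 (0.75), and for Cacna1d Plekha5 (0.81), Pogz (0.79) and Kat6b (0.75). For Cacna1a they were Slc12a5 (0.86), Iqsec1 (0.84) and Eme2 (0.84), and for Cacna1b Atp2b3 (0.84), which encodes a plasma-membrane calcium pump, Nos1ap (0.82) and Sez6l (0.82). Cacna1e was followed by Rapgef6 (0.86), Ank3 (0.86) and Hs6st2 (0.85). For the T-type genes they were Smarca4 (0.83) and Prrc2a (0.79) for Cacna1g, Dot1l (0.85), Gtf3c1 (0.84) and Sez6 (0.84) for Cacna1h, and Cmip (0.86), Smarca4 (0.83) and Dync1h1 (0.83) for Cacna1i. Once corrected for GC, r over the named pairs ran from 0.58 to 0.85. It was lowest, at 0.58, for Cmip and Dync1h1 with Cacna1i and for Iqsec1 with Cacna1a, and highest for Atp2b3 with Cacna1b.

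Among the accessory subunits, calls fell on all 4 beta subunits in both Het fluoxetine comparisons and on fewer genes elsewhere. Their counts, and those of the channel partners, stand beside shares of all tested genes called of 39% with fluoxetine in Het cortex, 39.5% between Het and WT fluoxetine cortex, 8.43% with fluoxetine in WT and 19.2% with lithium in WT cortex. With the library term no gene of these lists was called in either Het fluoxetine comparison. The 4 beta subunits, which bind the channels of the L, P/Q, N and R classes from inside the cell, had Cacnb2 called higher with fluoxetine in WT cortex (0.14, SE 0.033, adjusted p = 0.00226). With lithium in WT cortex Cacnb2 (0.18) and Cacnb4 (0.18) were called higher and Cacnb3 (-0.15) lower, and after the GC correction 0 of the 4 were called in either comparison. With fluoxetine in Het cortex Cacnb4 (0.32) and Cacnb2 (0.16) were called higher and Cacnb1 (-0.32) and Cacnb3 (-0.23) lower, and after the correction Cacnb4 alone (0.15, adjusted p = 0.0148). Between Het fluoxetine and WT fluoxetine cortex the same list had 2 called higher (Cacnb4 at 0.34 and Cacnb2 at 0.09) and 2 lower (Cacnb3 at -0.29 and Cacnb1 at -0.31), and after the GC correction Cacnb4 alone was called (0.16, adjusted p = 0.0179). Of the 4 alpha-2-delta subunits, Cacna2d1 was called higher in Het fluoxetine cortex against Het vehicle (0.26, adjusted p = 0.000335; after the GC correction 0.09, adjusted p = 0.0999) and Cacna2d2 in WT lithium against WT vehicle cortex (0.19, adjusted p = 0.0379; after it 0.25, adjusted p = 0.00668). Of the 7 measured genes of the gamma family, most of which serve AMPA receptors, Cacng7 was called lower with lithium in WT cortex (-0.15; after the GC correction -0.07, not called, while Cacng8 was called higher at 0.21), and 0 were called with fluoxetine in either genotype. Between Het and WT fluoxetine cortex Cacng3 (-0.17), Cacng4 (-0.27) and Cacng8 (-0.31) were called lower, and after the correction these were not called and Cacng7 was called higher (0.12). In that comparison 1 alpha-2-delta subunit was called higher, and 0 were after the GC correction. The remaining alpha-1 genes, Cacna1f of the retina and Cacna1s of skeletal muscle, were not called in any of these comparisons.

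Among genes that act on or near the channels, calls came with both drugs. Of 15 channel regulators, 5 were called lower with lithium in WT cortex and 0 higher, among them Ncs1, a neuronal calcium sensor (-0.25, adjusted p = 0.000239), Rem1, a small GTPase that holds channels back (-1.05, adjusted p = 0.00678), Cbarp (-0.29) and Calm3, a calmodulin gene (-0.17). Ncs1 was also called lower with lithium in Het cortex (-0.23, adjusted p = 0.0074), the 1 regulator called there. With fluoxetine 0 of the 15 were called in WT cortex, and in Het cortex 1 was called higher and 7 lower, led by Stac3 (-0.59), Calm3 (-0.24), Cbarp (-0.34) and Rrad (-0.61), where 19.9% of all tested genes were called lower. Corrected for GC, 2 were called, Stac3 (-0.49) and Rrad (-0.43), both lower. Of 12 release-site partners, Rims1, the active-zone scaffold that ties calcium channels to vesicles, was called lower with lithium in WT (-0.48, adjusted p = 8.36e-05) and in Het cortex (-0.37, adjusted p = 0.0198). In WT lithium cortex Rims3 was also lower (-0.21; not called after the GC correction, adjusted p = 0.0616), and Erc2 (0.17) and Rimbp2 (0.19) were higher. With fluoxetine Rims4 was called lower in WT cortex (-0.14, adjusted p = 0.0401; not called with the library term), and in Het cortex 3 partners were called higher and 4 lower, led by Erc2 (0.22), Rims4 (-0.19), Stx1a (-0.36) and Rims2 (0.13). Of these 7, Erc2 (0.16) and Rims2 (0.11) were called after the GC correction. Between Het and WT lithium cortex 1 of the 12 partners was called higher, where 0.0281% of all tested genes were called. It was 1 with the library term too, and 0 after the GC correction. Of 14 genes of calcium extrusion and stores, Ryr2, the release channel of the endoplasmic reticulum, was called higher with fluoxetine in WT cortex (0.18, adjusted p = 0.00901) and with lithium in WT cortex (0.17), where Atp2b3 (0.25) and the sodium-calcium exchanger gene Slc8a1 (0.21) were also called. In Het fluoxetine against Het vehicle cortex 6 of the 14 were called higher and 2 lower, led by Atp2b1 (0.25), Slc8a1 (0.31), Ryr2 (0.22) and Atp2b4 (0.19), and 5 were called higher and 0 lower after the GC correction. Between Het and WT fluoxetine cortex 2 regulators were called higher and 4 lower, 4 release-site partners higher and 2 lower, and 5 extrusion and store genes higher and 3 lower. The GC correction left 1, 4 and 3 higher calls in these 3 lists and 0 lower ones.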

How the data were processed

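RNA of 60 prefrontal cortex samples was sequenced and per the labels' protocols the library kit was a stranded one for mRNA. The deposited signal values are read counts per gene that the authors divided by 1 size factor per library. The submitters' processing notes name Salmon 0.11.2, DESeq2 1.19.11, R 3.6.0 and GRCm38. Undoing the factors gave whole reads, within 0.001, for 100% of values, 23901635 to 37769417 per library. Counting error was small beside the spread between libraries.

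Gene identifiers were matched to GENCODE M21 symbols (18077 of 18088). Genes with a value of 10 or more in at least 5 libraries (17810) were tested on the log2(value + 1) scale by limma 3.58.1 (R 4.3.3) with variance trend and robust shrinkage, a mean for each of 12 sex, genotype and drug groups (48 residual degrees of freedom) and Benjamini-Hochberg adjustment within each contrast. The procedure was tested on simulated counts that held no GC trend and no libraries set apart, with changes larger than those of the members. That test does not cover these features of the data. The GC correction removed, in each library, a loess curve (span 0.3) of gene deviations on transcript GC. The library term marks the 10 libraries low on 16 pseudogenes that were called and differed over 4-fold between Het and WT fluoxetine cortex. As the pseudogenes came from that comparison, the term is not independent of it. The Rps6-ps4 term marks the 11 libraries with a value of 0 for Rps6-ps4. These are the 10 libraries of the library term and WT lithium male replicate 1, so it is not a separate check. Both terms take in 9 of 10 Het fluoxetine libraries, so calls lost with them do not show that a difference is absent. As an alternative, edgeR 4.0.16 ran on the recovered reads of 17776 genes and called 6910 genes with fluoxetine in Het, 1500 with fluoxetine in WT and 3375 with lithium in WT cortex. Other alternatives changed the scaling, filter, pseudocount, samples fitted and replicate block.

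All 8 members are given in each contrast. Genes of other lists are named where called, up to the 4 smallest p-values per list and contrast. For likeness the 3 highest r are named, leaving out predicted genes and clone names. For Cacna1g, 1 of the 3 is not reported here. Members and lists were chosen with earlier results of these data known.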

Additional observations from a re-analysis of the deposited data

Results flagged for a closer look

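Of 96 sets of 5 libraries (8 genes in 12 sex, genotype and drug groups), 6 held 1 library whose gap to the nearest other exceeded 0.71 of the set's range, a limit that chance passes in about 1 of 20 sets. Cacna1b was lowest in Het lithium male replicate 3, at 5089 normalised counts beside 5429 to 5552 in the other 4 males. Cacna1c was highest in Het vehicle male replicate 5, at 4481 beside 2917 to 3174. Cacna1d was highest in Het fluoxetine female replicate 2, at 2953 beside 2161 to 2307, and in WT vehicle female replicate 3, at 3136 beside 2102 to 2292. Cacna1e was lowest in WT fluoxetine male replicate 4, at 8084 beside 9040 to 9388. Cacna1g was lowest in WT lithium male replicate 5, at 3443 beside 4414 to 4642.

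In limma's interaction term for fluoxetine, 24% of all tested genes were called, so calls there were common. Among the members Cacna1a was called, by -0.27 on the log2 scale, and Cacna1g, by -0.24. Both lost their call after the GC correction and with the library term.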

How the results depend on the processing

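Het fluoxetine results depended most on the GC correction and on the terms for libraries that stood apart. Of the 5 members called between Het fluoxetine and WT fluoxetine cortex, 1 was called after the GC correction, with or without the replicate block, and 0 with the library term, the Rps6-ps4 term (11 libraries) or the GC correction with library term, which was chosen after seeing the data. Of the 5 called with fluoxetine in Het cortex 2, 2, 0, 0 and 0 were called under these 5 settings, and of the 2 interaction calls 0 under each. Directions turned as follows, on the log2 scale. Between Het fluoxetine and WT fluoxetine cortex the GC correction, with or without the block, gave 0.031 for Cacna1a and 0.018 for Cacna1i, and with the library term added it gave 0.026 for Cacna1g, 0.020 for Cacna1h and 0.0039 for Cacna1i. With fluoxetine in Het cortex the GC correction gave 0.046 for Cacna1i, the library term 0.022 for Cacna1g, 0.10 for Cacna1h and 0.021 for Cacna1i, and both together 0.030 for Cacna1g, 0.11 for Cacna1h and 0.031 for Cacna1i; the interaction of Cacna1g was then 0.0095. The cause was not tested. With lithium in Het cortex 1 member, Cacna1a, was called after the GC correction, with or without the block, with the library term added, and without the 3 libraries of largest residual. With lithium in WT cortex 2 were called with the groups fitted alone.

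Over all genes, 7042 were called between Het fluoxetine and WT fluoxetine cortex, against 2328 after the GC correction and 7 and 15 with the library and Rps6-ps4 terms; with fluoxetine in Het cortex 6952, against 3493, 49 and 332; in the interaction 4272, against 1328, 8 and 42. With lithium in Het cortex 175 were called, against 378 after the correction and 496 without the 3 libraries, and with lithium in WT cortex 3420, against 1278 with the groups fitted alone.

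Leaving out 1 library gave 2 to 4 called members in the interaction, 2 to 6 with lithium in WT, 3 to 4 with fluoxetine in WT, 5 in each of the other fluoxetine comparisons and 0 elsewhere. The replicate block changed no member call by itself (5, 5, 4, 4 and 2 called). Pairs of libraries with the same number had a median correlation of deviations of 0.00041 (330 pairs, 54 above 0.1), beside 0.0008 in 1320 other pairs. The numbers thus showed no pairing over all groups pooled. Pairing within only some groups could be missed by this comparison. TMM scaling, no filter and a pseudocount of 5 left each count of called members as it was.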
